A study of Arabidopsis thaliana with 12 samples.

Results

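Cycling Dof factors and their closest relatives are transcription factors with a Dof zinc finger, and 4 of their genes were followed on root arrays: CDF4 (AT2G34140), CDF5 (AT1G69570), DOF1.5 (AT1G29160) and DOF1.3 (AT1G26790). The 4 were picked by locus out of 16548 genes with a usable entry, and they had been selected on their earlier known rise with estriol in every line. Their levels, their changes with estriol and the differences of these changes between lines are therefore a description, with no test. CDF5 had 2 entries in the table, of which the brighter over the 12 arrays was used, and each of the others had 1. A single entry is all that stands behind each gene's level, so levels of different genes are not set against each other.

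Roots of 3 transgenic Arabidopsis lines were measured, each carrying a Dof gene in ER8, an expression vector that an estrogen switches on. The ER8Dof1.1 line is given as ER8Dof1.1/S32/Col, the ER8Dof2.2 line as ER8Dof2.2/SUC2p::GFP-GUS and the ER8PEAR2 line as ER8PEAR2/SUC2p::GFP-GUS. Seedlings 68 h old grew on under continuous light for 16 h, on mock plates or with 10 µM estriol, an estrogen, and entire roots were collected. Each of the 6 groups had 2 biological replicates by the sample titles, and each array read 1 sample. Whether a line derives from 1 transformation event is not given in the sources used here. Every group carried a transgene, so an effect of estriol alone and an effect of the induced Dof gene cannot be told apart. Each transgene was measured in its own line only, and the ER8Dof1.1 line had another labelled background. A difference between lines can thus come from the transgene, the background, other features of the line or the array scale, which the design does not separate. In entire roots, more cells of a type and more RNA per cell cannot be told apart either.

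Cycling Dof factors take their name from transcripts that rise and fall over the day. In leaves, CDF proteins bind the promoters of CO and FT and hold back flowering, until GI and the F-box protein FKF1 mark them for degradation in the afternoon of long days. In the root tip, CDF4 promotes the differentiation of columella stem cells and is held down by the stem cell regulator WOX5. DOF1.5 is also known as COG1, a negative regulator of phytochrome signalling, and DOF1.3 as CDF6, a further repressor of FT. CDF5 shares its locus with FLORE, a natural antisense transcript that cycles in the opposite phase.

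Signals are log2 values as deposited. Array medians were 5.94 to 6.16 in the ER8Dof1.1 line, 5.41 to 5.58 in the ER8Dof2.2 line and 6.48 to 6.57 in the ER8PEAR2 line, so deposited levels sit on a somewhat different scale in each line. Levels between lines are for this reason given also after quantile normalization over all 12 arrays, called common normalization here. A group mean under the lower quartile of all entries in that group is called dim, because it is not shown to lie above background. The limits were 3.55, 2.99 and 4.04 for mock and 3.57, 2.93 and 3.98 for estriol in the ER8Dof1.1, ER8Dof2.2 and ER8PEAR2 lines. The measured root markers EXPA7, EXPA18 and PYK10, 3 of the 10 on the list, had mock means of 9.17 to 13.46. The measured leaf marker RCA, 1 of 10 on its list, had group means of 7.89 to 8.85 and was not dim in any group. DOF2.2 rose in its own line by 3.04 ± 0.27 (log2 change ± SE of the fit), but also by 2.99 in the ER8Dof1.1 line and 2.04 in the ER8PEAR2 line (limma, adjusted p = 1.81e-05, 1.67e-05 and 0.000486). PEAR2 rose in its own line by 4.38 ± 0.2 and in the ER8Dof1.1 line by 1.03 (limma, adjusted p = 8.68e-07 and 0.00293), with 0.13 in the ER8Dof2.2 line (0.698). The Dof1.1 transcript was not analysed here.

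CDF4, the columella regulator, rose to a similar extent in all 3 lines. In the ER8Dof1.1 line its signal was 5.21 and 5.3 on the mock arrays and 9.37 and 9.11 on the estriol arrays, a log2 change of 3.99 ± 0.21 (SE, 15.8-fold). With the Dof2.2 transgene it stood at 4.29 and 3.7 on mock and 8.04 and 7.87 on estriol arrays, a change of 3.96 ± 0.21 (15.6-fold). With the PEAR2 transgene it stood at 6.23 and 5.99 on mock and 10.19 and 9.94 on estriol arrays, a change of 3.96 ± 0.21 (15.5-fold). The estriol arrays lay far above the mock arrays in each line, with no overlap, and no group was dim. Changes from single mock to single estriol arrays spanned 3.81 to 4.16, 3.58 to 4.34 and 3.71 to 4.2 in the ER8Dof1.1, ER8Dof2.2 and ER8PEAR2 lines, ranges that overlap for every pair of lines. The 3 changes differed by at most 0.03, well inside the SE of such a difference, 0.29. Common normalization gave changes of 4.03, 3.85 and 4.13 and widened that spread to 0.27.

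The starting level of CDF4 was not equal between lines. As deposited, mock means were 5.26 ± 0.06, 4.0 ± 0.42 and 6.11 ± 0.17 (SD, n = 2) in the ER8Dof1.1, ER8Dof2.2 and ER8PEAR2 lines, and estriol means were 9.24 ± 0.18, 7.96 ± 0.12 and 10.07 ± 0.18. Common normalization put the mock means at 5.13, 4.5 and 5.56 and the estriol means at 9.15, 8.35 and 9.69. The order of the lines, ER8PEAR2 above ER8Dof1.1 above ER8Dof2.2, was the same on both scales and in both treatments. Mock roots of the ER8Dof2.2 and ER8PEAR2 lines, whose labelled background is the same, differed by -2.12 (ER8Dof2.2 minus ER8PEAR2) as deposited and by -1.07 after common normalization, so the size of the gap depends on the scaling.

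CDF5, a repressor of flowering in leaves, had the smallest change of the 4 in each line. Roots with the Dof1.1 transgene read 3.13 and 3.3 on mock and 5.15 and 4.23 on estriol arrays, a change of 1.48 ± 0.26 (2.78-fold). With the Dof2.2 transgene it stood at 3.16 and 2.87 on mock and 4.25 and 4.38 on estriol arrays, a change of 1.3 ± 0.26 (2.46-fold). With the PEAR2 transgene it stood at 3.88 and 3.95 on mock and 6.82 and 7.01 on estriol arrays, a change of 3.0 ± 0.26 (8.0-fold). Groups did not overlap in any line, but the estriol arrays of the ER8Dof1.1 line had an SD of 0.65 (n = 2) around their mean of 4.69, the widest spread of any group of these 4 genes. Mock roots were dim in the ER8Dof1.1 and ER8PEAR2 lines and just above the limit in the ER8Dof2.2 line, so the folds are not exact.

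The rise of CDF5 was larger in the ER8PEAR2 line than in the others. The differences in change were -1.53 ± 0.36 (SE) for ER8Dof1.1 minus ER8PEAR2 and -1.7 ± 0.36 for ER8Dof2.2 minus ER8PEAR2. Single array changes of 2.87 to 3.13 in the ER8PEAR2 line overlapped neither those of the ER8Dof1.1 line, 0.93 to 2.02, nor those of the ER8Dof2.2 line, 1.09 to 1.51. The share of all genes with ranges separated in this way was not counted, so nothing is read from the lack of overlap. The ER8Dof1.1 and ER8Dof2.2 lines differed by 0.18 ± 0.36, with overlapping array changes. After common normalization mock means were 3.19, 3.54 and 3.4 in the ER8Dof1.1, ER8Dof2.2 and ER8PEAR2 lines, whereas estriol means were 4.73, 4.98 and 6.48. On that scale the lines differed in mock roots by -0.35 (ER8Dof1.1 minus ER8Dof2.2) at most, and with estriol by -1.75 (ER8Dof1.1 minus ER8PEAR2) and -1.495 (ER8Dof2.2 minus ER8PEAR2). The changes of the second CDF5 entry had the same order over the lines.

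That second entry needs a remark on identity. Its signals were 3.62 and 3.4, then 4.76 and 4.79, in the ER8Dof1.1 line, where the first value pair is mock and the second estriol. With the Dof2.2 transgene they were 3.1 and 3.09, then 4.26 and 4.34. With the PEAR2 transgene they were 3.75 and 4.16, then 6.21 and 6.36. The changes were 1.27 ± 0.16, 1.21 ± 0.16 and 2.33 ± 0.16, and the differences were -1.07 ± 0.23 (ER8Dof1.1 minus ER8PEAR2) and -1.13 ± 0.23 (ER8Dof2.2 minus ER8PEAR2). Entry numbers on each of the 5 chromosomes form 2 runs that each follow the order of genes from end to end (Spearman correlation of number with gene position 0.917 to 1.0). The 2 CDF5 entries lie in different runs, as do those of 121 of the 143 genes with several entries and a position. Which strand each run reads is not given in the sources used here. The annotation places AT1G69572, a non-coding RNA, within AT1G69570, and it has no entry of its own in the list of genes used here. Whether either entry reads a transcript of the opposite strand was therefore not tested, and the values above are those of entries assigned to CDF5.

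DOF1.5, the regulator of light signalling, had the most even response beside CDF4. Roots with the Dof1.1 transgene read 7.84 and 8.22 on mock and 11.36 and 11.62 on estriol arrays, a change of 3.46 ± 0.2 (11-fold). With the Dof2.2 transgene it stood at 7.49 and 7.88 on mock and 10.69 and 11.03 on estriol arrays, a change of 3.18 ± 0.2 (9.03-fold). With the PEAR2 transgene it stood at 8.38 and 8.27 on mock and 11.75 and 11.76 on estriol arrays, a change of 3.43 ± 0.2 (10.8-fold). Groups did not overlap in any line and none was dim. Single array changes spanned 3.14 to 3.78, 2.81 to 3.54 and 3.37 to 3.49 in the ER8Dof1.1, ER8Dof2.2 and ER8PEAR2 lines, which overlap for every pair, and the differences between lines were 0.29 ± 0.28 (ER8Dof1.1 minus ER8Dof2.2), 0.03 ± 0.28 (ER8Dof1.1 minus ER8PEAR2) and -0.26 ± 0.28 (ER8Dof2.2 minus ER8PEAR2). Common normalization moved the last of these to -0.53 ± 0.27. Mock means then lay at 8.03, 8.15 and 7.93 and estriol means at 11.47, 11.2 and 11.5, so the order of the lines in mock roots, ER8PEAR2 above ER8Dof1.1 above ER8Dof2.2 as deposited, was turned by the scaling.

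DOF1.3, a repressor of FT, had the largest change of the 4 in the ER8PEAR2 line. Roots with the Dof1.1 transgene read 3.11 and 3.76 on mock and 7.62 and 7.44 on estriol arrays, a change of 4.1 ± 0.24 (17.1-fold). With the Dof2.2 transgene it stood at 4.19 and 3.66 on mock and 7.39 and 7.29 on estriol arrays, a change of 3.42 ± 0.24 (10.7-fold). With the PEAR2 transgene it stood at 4.1 and 3.96 on mock and 9.1 and 9.43 on estriol arrays, a change of 5.24 ± 0.24 (37.7-fold). Groups did not overlap, and mock roots were dim in the ER8Dof1.1 line and, by 0.01, in the ER8PEAR2 line, so these folds are not exact.

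The rise of DOF1.3 in the ER8PEAR2 line exceeded that in the ER8Dof1.1 line (ER8Dof1.1 minus ER8PEAR2, -1.14 ± 0.34) and that in the ER8Dof2.2 line (ER8Dof2.2 minus ER8PEAR2, -1.82 ± 0.34). Single array changes of 5.0 to 5.47 in the ER8PEAR2 line overlapped neither those of the ER8Dof1.1 line, 3.68 to 4.51, nor those of the ER8Dof2.2 line, 3.1 to 3.73. As for CDF5, nothing is read from this, since the share of all genes with such separated ranges was not counted. The ER8Dof1.1 and ER8Dof2.2 lines differed by 0.68 ± 0.34, with array changes that just overlapped. After common normalization the mock means were 3.4, 4.44 and 3.51 in the ER8Dof1.1, ER8Dof2.2 and ER8PEAR2 lines and the estriol means 7.5, 7.77 and 8.88. On that scale the ER8Dof2.2 line minus the ER8PEAR2 line was 0.92 in mock roots and -1.12 with estriol, and the difference in change was -2.04 ± 0.32. As deposited these level differences were -0.11 and -1.93.

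**Figure D1:**
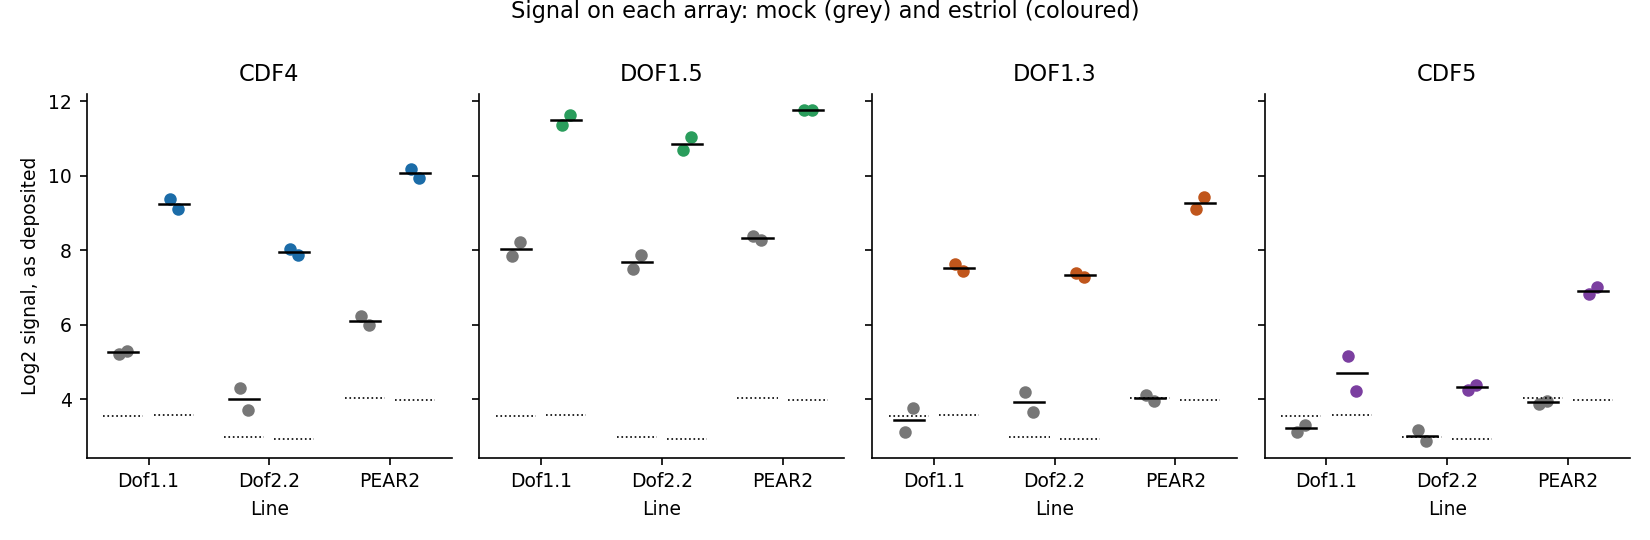
Log2 signal as deposited (vertical axis) on each of the 12 arrays for CDF4, DOF1.5, DOF1.3 and CDF5, by line; grey points are mock and coloured points estriol arrays, short black bars the means of 2 arrays, and dotted bars the limit under which a group mean is called dim. Estriol arrays lie above mock arrays in every panel and line, and mock CDF5 signals of 2.87 to 3.95 lie near the dotted limits.

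**Figure D2:**
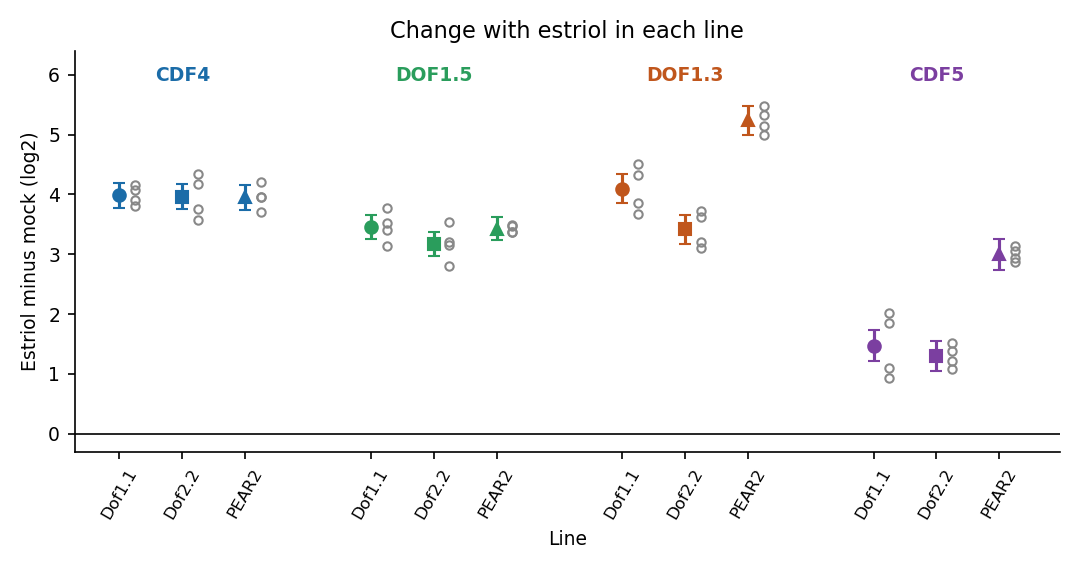
Log2 change with estriol (vertical axis) of the 4 genes in the ER8Dof1.1, ER8Dof2.2 and ER8PEAR2 lines; filled marks are the fitted change with its SE, and open circles the 4 differences between single estriol and single mock arrays. As deposited, CDF4 and DOF1.5 are nearly level across lines, at 3.96 to 3.99 and 3.18 to 3.46, and common normalization widens their spreads to 0.27 and 0.53. DOF1.3 and CDF5 are highest in the ER8PEAR2 line, at 5.24 and 3.0.

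Across lines the change of CDF4 spread over 0.03 and that of DOF1.5 over 0.29, against 1.82 for DOF1.3 and 1.7 for CDF5. Among the 463 genes that rose at least 2-fold in all 3 lines the median spread was 0.73, with 0 genes under CDF4, 59 under DOF1.5, 408 under DOF1.3 and 396 under CDF5. The places of DOF1.3 and CDF5 are not exact, since their mock signals were dim in the ER8Dof1.1 and ER8PEAR2 lines. After common normalization, 481 genes met that criterion with a median spread of 0.72, and CDF4 then had 63 of them below it and DOF1.5 177. The place of CDF4 at the very bottom thus depends on the scaling, and its spread is smaller than its replicate error allows to be resolved.

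The background to these rises was wide. Both estriol arrays stood above both mock arrays in all 3 lines for 4 of the 4 genes, and for 19.2% of all genes. By line that share of all genes was 37.4%, 37.7% and 33.6% in the ER8Dof1.1, ER8Dof2.2 and ER8PEAR2 lines. A rise of at least 2-fold in all lines, met by the 4 genes, was met by 2.80% of all genes. Since the genes were chosen for rising, nothing is read from these counts. For scale, 94, 44 and 46 genes had a larger rise than CDF4 in the ER8Dof1.1, ER8Dof2.2 and ER8PEAR2 lines, 133, 97 and 78 a larger rise than DOF1.5, 87, 77 and 23 a larger rise than DOF1.3, and 648, 588 and 116 a larger rise than CDF5. Rises at least as large in each of the 3 lines at once were found for 17 other genes (0.103%) in the case of DOF1.3, 23 (0.139%) for CDF4, 43 (0.260%) for DOF1.5 and 100 (0.604%) for CDF5.

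**Figure D3:**
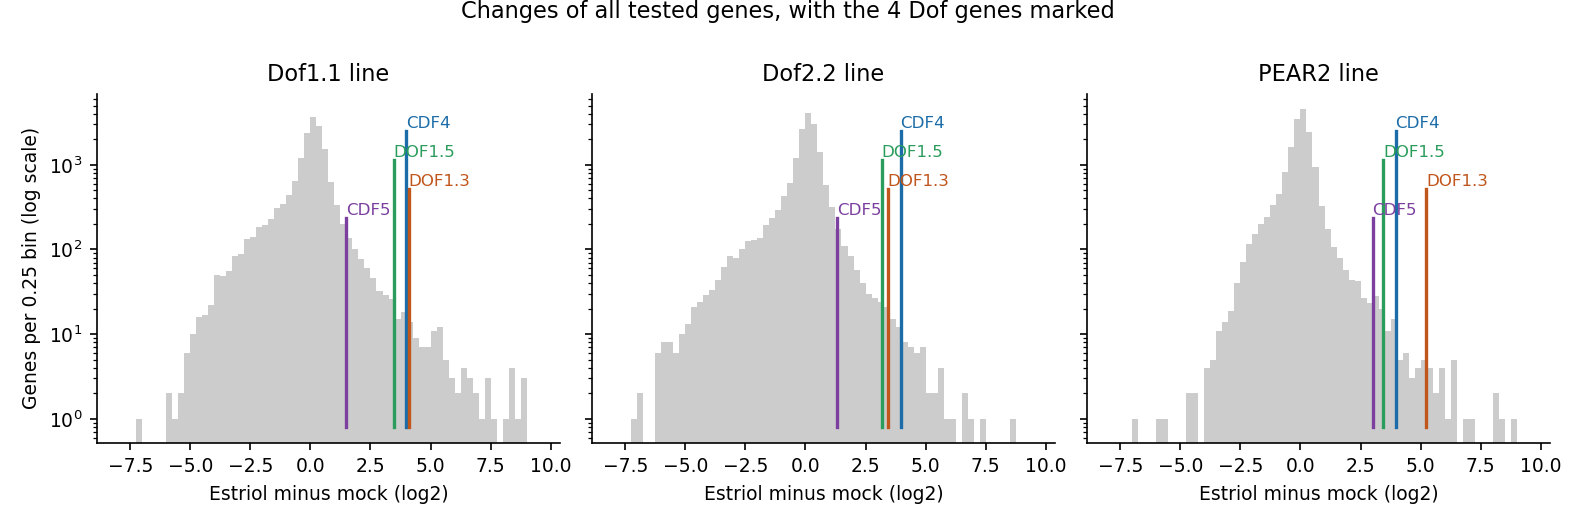
Histograms of the log2 change with estriol of all 16548 tested genes in each line (horizontal axis; bins of 0.25), with the number of genes on a log axis; coloured lines mark the 4 Dof genes and their heights carry no value. The 4 genes lie in the upper tail, where 23 genes had a larger rise than DOF1.3 in the ER8PEAR2 line and 648 a larger rise than CDF5 in the ER8Dof1.1 line.

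**Figure D4:**
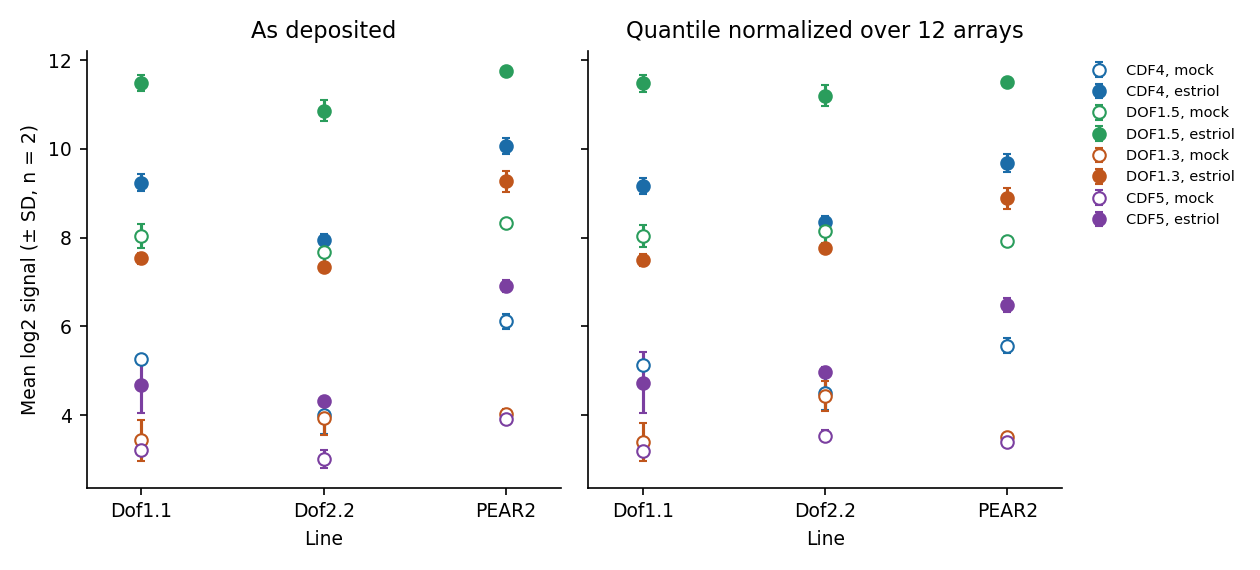
Mean log2 signal (± SD, n = 2) of the 4 genes in mock (open) and estriol (filled) roots of each line, as deposited on the left and after quantile normalization over all 12 arrays on the right. Mock levels of CDF5 and DOF1.5 draw together on the right, while CDF4 keeps its order, from 4.5 in the ER8Dof2.2 to 5.56 in the ER8PEAR2 line. Those of DOF1.3 draw apart, from 3.4 in the ER8Dof1.1 to 4.44 in the ER8Dof2.2 line. On the left they run from 3.435 in the ER8Dof1.1 to 4.03 in the ER8PEAR2 line.

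The genes whose pattern was most like each of the 4 were found by the root mean square difference over the 12 arrays of log2 signal minus the gene's mock mean in the same line. For CDF4 they were AT4G13600 (0.28), IDD16 (0.32), a gene of the INDETERMINATE-domain zinc finger family, and AT4G34560 (0.33). For DOF1.5 they were ATL5 (0.2), a RING-type ubiquitin ligase gene, AT5G08350 (0.21) and AT5G17980 (0.22). For DOF1.3 they were PR-1-LIKE (0.47), AT3G16330 (0.49) and AT1G61600 (0.51), and for CDF5 AT5G23350 (0.34), AT4G29640 (0.35) and AT5G23370 (0.35). PR-1-LIKE was dim in mock roots, at 1.7, 0.93 and 1.22 in the ER8Dof1.1, ER8Dof2.2 and ER8PEAR2 lines, so its likeness to DOF1.3 is not exact. ATL5, the closest match of all, changed by 3.2, 3.36 and 3.49 in the ER8Dof1.1, ER8Dof2.2 and ER8PEAR2 lines, beside 3.46, 3.18 and 3.43 for DOF1.5. AT5G23350 changed by 1.3, 1.72 and 3.17, beside 1.48, 1.3 and 3.0 for CDF5. Among the 4 themselves the nearest were CDF4 and DOF1.5 (0.51) and CDF4 and DOF1.3 (0.59), and the farthest DOF1.3 and CDF5 (1.66). CDF4 was the 6th closest of all genes to DOF1.3, but DOF1.3 the 26th closest to CDF4. DOF1.5 was the 17th closest to CDF4, and CDF4 the 48th closest to DOF1.5. DOF1.5 ranked 27 for DOF1.3, and DOF1.3 ranked 138 for DOF1.5. CDF5 ranked 282, 274 and 216 for CDF4, DOF1.5 and DOF1.3, and these ranked 11146, 1703 and 12754 for CDF5. The genes were chosen for rising, which bears on these ranks, so nothing is read from them. These are descriptions of likeness over 12 arrays that share lines and treatments.

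Genes that act with the cycling Dof factors were hardly covered. Of 44 genes of the clock and of photoperiodic flowering, GI and RVE6 had an entry naming them alone. CDF1, CDF2, CDF3, FKF1, CO and FT were not analysed here, and of the 14 genes of light signalling and brassinosteroid synthesis 0 were measured. GI, the partner of FKF1 in the control of CDF proteins, was at 9.64 and 9.56, then at 9.92 and 9.82 with estriol, in roots with the Dof1.1 transgene. With the Dof2.2 transgene it was at 8.89 and 8.87, then 9.18 and 9.08. With the PEAR2 transgene it was at 9.95 and 10.02, then 10.34 and 10.33. Estriol arrays were above mock arrays in each line, which held for 19.2% of all genes. The changes of 0.27 ± 0.13, 0.25 ± 0.13 and 0.35 ± 0.13 did not pass the threshold (limma, adjusted p = 0.130, 0.176 and 0.0864). RVE6, a MYB-like clock factor, had changes of -0.02, -0.14 and -0.04 (SE 0.18; limma, adjusted p = 0.962, 0.640 and 0.939). By limma 0 of these 2 genes were thus called in either direction in any line, and 0, 0 and 1 had an unadjusted p under 0.05. The share of all genes under that unadjusted limit was not counted, so such counts, here and below, are given without a reading. The medians of the 2 changes were 0.13, 0.06 and 0.16, beside 0.11, 0.11 and 0.03 over all genes. Over all genes, 17.8%, 14.8% and 8.33% were called higher and 16.2%, 13.6% and 10.4% lower in the ER8Dof1.1, ER8Dof2.2 and ER8PEAR2 lines.

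Genes of the columella and root cap, where CDF4 is known to act, were measured for 2 of 15 on the list, and WOX5 was not among them. ACR4, a receptor kinase of the columella, changed by -0.15, 0.21 and 0.17 (SE 0.22; limma, adjusted p = 0.654, 0.542 and 0.689). CLE40, a peptide gene that restricts the columella stem cells, changed by 0.83, 0.1 and 0.19 (SE 0.33; limma, adjusted p = 0.0794, 0.866 and 0.776), and its change in the ER8Dof1.1 line was called without either ER8Dof2.2 estriol array (0.0119). The CLE40 signal was dim in mock roots of every line and in ER8PEAR2 estriol roots, so its changes are not exact and its missing calls do not show an absent change. By limma 0 of 2 were called in each line, and 1, 0 and 0 had an unadjusted p under 0.05. The medians were 0.34, 0.16 and 0.18, beside 0.11, 0.11 and 0.03 over all genes. A count of 2 genes is too small to read against the shares of all genes called, given above.

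Phloem markers were measured for 3 of 21 on the list. OPS, a protophloem polarity gene, rose by 0.91, 1.29 and 1.21 (SE 0.15; limma, adjusted p = 0.00103, 0.000118 and 0.000339). SWEET11, a sucrose exporter, rose by 4.01 ± 0.55 in the ER8PEAR2 line (limma, adjusted p = 0.000583), with 1.48 in the ER8Dof1.1 line (0.064) and 0.3 in the ER8Dof2.2 line (0.752). Without ER8Dof2.2 mock array 2 its change in that line was 1.35 (limma, adjusted p = 0.0268), and without either ER8Dof2.2 mock array that in the ER8Dof1.1 line was called (0.00402), as it was with the replicate block (0.0134), which treats same-numbered mock and estriol arrays of a line as pairs. CLE45, a protophloem peptide gene, changed by 0.04, 0.32 and 0.12 (SE 0.19; limma, adjusted p = 0.904, 0.265 and 0.772). The CLE45 signal was dim in every group except ER8Dof2.2 estriol roots, so the missing calls do not show an absent change. In all, 1, 1 and 2 of the 3 were called, all higher, with list medians of 0.91, 0.32 and 1.21 beside 0.11, 0.11 and 0.03 over all genes. The shares of all genes called higher were 17.8%, 14.8% and 8.33%, and a count of 3 genes is too small to read against them. The root hair expansins fell in every line, with changes of -3.49, -4.39 and -1.94 for EXPA7 (SE 0.19) and of -3.98, -5.17 and -1.88 for EXPA18 (SE 0.15; limma, adjusted p = 5.71e-05 or lower for each). PYK10, a root glucosidase, changed by -0.6, -0.6 and -0.24 (SE 0.15; limma, adjusted p = 0.0119, 0.0147 and 0.345). Both of its calls were lost on the arrays of the line alone (limma, adjusted p = 0.0782 for ER8Dof1.1 and 0.0501 for ER8Dof2.2). That in the ER8Dof1.1 line was also lost without mock array 1 (-0.51) or estriol array 2 (-0.42). That in the ER8Dof2.2 line was lost without any single array of the line (-0.61 to -0.58). RCA changed by -0.16, -0.4 and -0.52 (SE 0.19; limma, adjusted p = 0.572, 0.142 and 0.0834). It was called lower in the ER8PEAR2 line with the replicate block (limma, adjusted p = 0.042), array weights (0.028) or trended robust moderation (0.0445) and without either ER8Dof2.2 estriol array (0.0373), and in the ER8Dof2.2 line without estriol array 1 (0.0248). The part of these shifts in the rise of the 4 Dof genes was not tested.

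The Dof family list held 36 genes, of which 14 were measured, the 4 above among them. Apart from DOF2.2 and PEAR2, the other measured Dof genes were called lower or not at all, before the alternative settings given below. Leaving out only a line's own transgene, limma called 2 of 10 higher and 3 lower in the ER8Dof1.1 line, 0 of 9 higher and 4 lower in the ER8Dof2.2 line, and 1 of 9 higher and 1 lower in the ER8PEAR2 line. Those called higher were DOF2.2 and PEAR2, with the values given above. Over all genes 17.8%, 14.8% and 8.33% were called higher and 16.2%, 13.6% and 10.4% lower. Without DOF2.2 and PEAR2 in any line, 0 of 8 genes were called higher and 3, 4 and 1 lower. At an unadjusted p under 0.05, 1, 0 and 0 were higher and 4, 5 and 3 lower. Their changes ran from -1.36 to 0.44, from -1.34 to -0.09 and from -0.73 to 0.02, with medians of -0.45, -0.55 and -0.34. DOF2.1 was the gene called lower in every line, with changes of -1.14, -1.34 and -0.73 (SE 0.18; limma, adjusted p = 0.00073, 0.000309 and 0.0188), and its call in the ER8PEAR2 line was lost without any single array of that line (0.0728 to 0.112). DOF5.8 had the highest of these changes, 0.44 ± 0.17 in the ER8Dof1.1 line (limma, adjusted p = 0.0758). It was called higher there after common normalization (0.63, limma, adjusted p = 0.0149), with the replicate block (0.0429) and without either ER8Dof2.2 mock array (0.042). The calls of DOF1.4 and DOF1.6 in the ER8Dof2.2 line, of DOF1.2 there and of DOF4.6 in the ER8Dof1.1 line were each lost without at least 1 array of that line, with adjusted p by limma of up to 0.0903, 0.0692, 0.0555 and 0.176. In the ER8Dof1.1 line DOF1.4 was called lower without mock array 1 (limma, adjusted p = 0.0333) and DOF1.6 without estriol array 2 (0.0276). The replicate block added lower calls of DOF1.4 (0.0362) and DOF1.8 (0.0253) in that line and of DOF4.6 in the ER8Dof2.2 line (0.0266). In the ER8PEAR2 line array weights added lower calls of DOF1.4 (limma, adjusted p = 0.0414) and DOF1.6 (0.0427). DOF1.6 was also called lower on that line's arrays alone (0.0454). Estriol means were dim for DOF1.6 in every line and for DOF1.2 in the ER8Dof1.1 line, so these falls are not exact.

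Position along the chromosome was set beside the rise, by way of the 2 annotated protein-coding genes on either side of each Dof gene. DOF1.3, DOF1.5 and CDF5 lie on chromosome 1 and CDF4 on chromosome 2, and 10 of the 16 neighbours were measured. By limma 2, 0 and 1 of the 10 were called higher in the ER8Dof1.1, ER8Dof2.2 and ER8PEAR2 lines and 0 lower in each, beside 17.8%, 14.8% and 8.33% of all genes called higher, so these counts are not a result about the neighbours. AT2G34123, next to CDF4, went from 2.14 and 2.08 to 5.5 and 6.24 in the ER8Dof1.1 line, a rise of 3.76 ± 0.26 (limma, adjusted p = 2.89e-06). It stood at 1.46 and 1.69, then 1.85 and 1.87, with the Dof2.2 transgene, a change of 0.29 ± 0.26 (limma, adjusted p = 0.478), and at 2.72 and 2.03, then 3.93 and 3.87, with the PEAR2 transgene, a rise of 1.53 ± 0.26 (limma, adjusted p = 0.00237). Its signal was dim in every group except ER8Dof1.1 estriol roots. The rise in the ER8Dof1.1 line exceeded the change in the ER8Dof2.2 line by 3.48 ± 0.37 (limma, adjusted p = 0.00101) and that in the ER8PEAR2 line by 2.24 ± 0.37 (limma, adjusted p = 0.0129, and 0.0544 without ER8PEAR2 estriol array 2), while the changes of CDF4 beside it lay within 0.03 of each other. Such differences between lines were called for 1.53% of all genes between the ER8Dof1.1 and ER8Dof2.2 lines, 2.91% between the ER8Dof1.1 and ER8PEAR2 lines and 1.66% between the ER8Dof2.2 and ER8PEAR2 lines.

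AT1G69580, the next gene after CDF5, went from 6.69 and 7.36 to 7.79 and 8.47 in the ER8Dof1.1 line, a rise of 1.11 ± 0.27 (limma, adjusted p = 0.00985). Its change was 0.8 ± 0.27 in the ER8Dof2.2 line (limma, adjusted p = 0.0507) and -0.16 ± 0.27 in the ER8PEAR2 line (0.779), where CDF5 rose most. No difference of this gene between lines passed the threshold (limma, adjusted p = 0.931 for ER8Dof1.1 minus ER8Dof2.2, 0.128 for ER8Dof1.1 minus ER8PEAR2 and 0.363 for ER8Dof2.2 minus ER8PEAR2). The rise in the ER8Dof1.1 line missed the threshold without that line's mock array 1 (limma, adjusted p = 0.0835) or estriol array 2 (0.0854). That in the ER8Dof2.2 line passed it without any single ER8Dof1.1 array (0.0327 or 0.0333) or ER8Dof2.2 estriol array 1 (0.0497), and also without the dimmest genes (0.0392), with trended robust moderation (0.0278), with all entries (0.0493) and with the replicate block (0.0129).

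**Figure D5:**
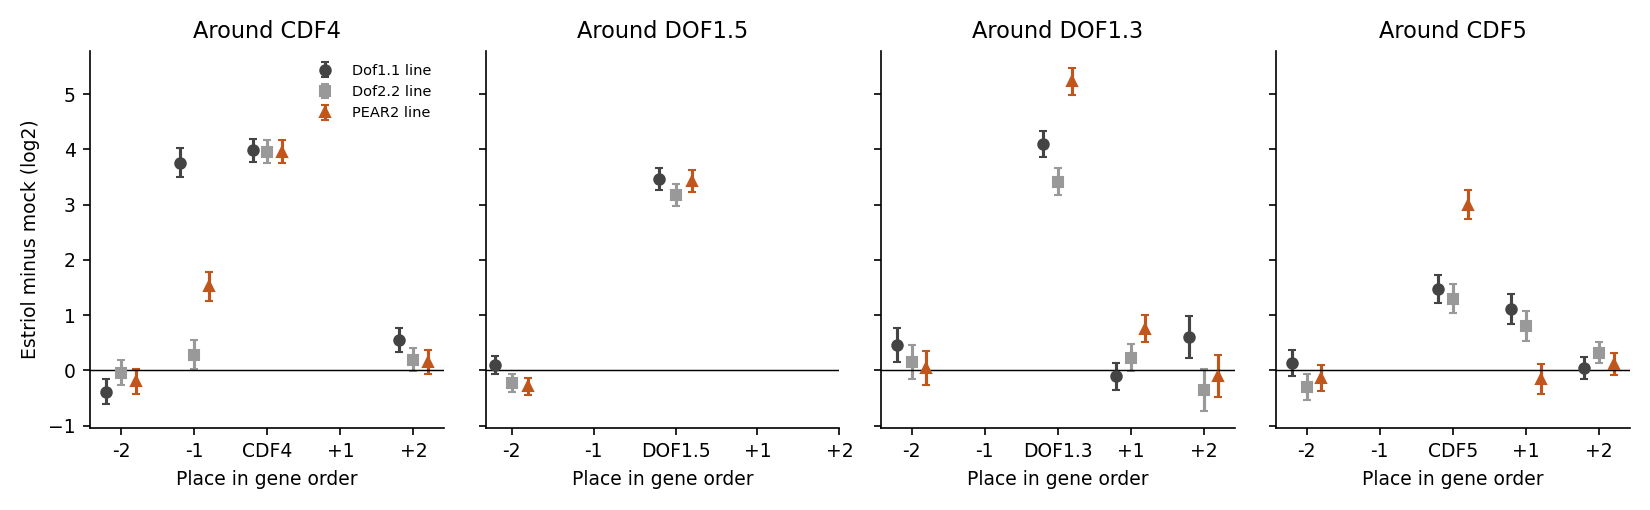
Log2 change with estriol (vertical axis, ± SE) of each Dof gene and of the measured protein-coding genes at places -2, -1, +1 and +2 in the annotated gene order (horizontal axis), by line; a missing mark is a gene not measured. Beside CDF4, AT2G34123 reaches 3.76 in the ER8Dof1.1 line and 0.29 in the ER8Dof2.2 line, and AT1G69580 beside CDF5 reaches 1.11 in the ER8Dof1.1 line.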

How the data were processed

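The deposited table holds log2 signals of 28583 entries on 12 one-colour arrays, made by the authors with RMA per the submitters' processing notes, with no version. RNA was labelled with the GeneChip WT kit, per the labels. Genes came from GEO's platform annotation, updated through RefSeq for TAIR10.1, and 16548 genes had an entry naming them alone, the brightest being taken for 148 genes with several. A model of 6 group means over all arrays was fitted with limma 3.58.1 in R 4.3.3 with empirical Bayes moderation (6 residual and 3.94 prior degrees of freedom) and checked on simulated data. P-values are two-sided, with Benjamini-Hochberg adjustment across the 16548 genes per contrast, and 0.05 was the threshold. Without the dimmest genes the adjustment ran over the genes kept, and with all entries over the 28583 entries. Alternatives were common normalization, other moderation, array weights, leaving out dim genes, other choices of entries, a replicate block, the arrays of the lines compared alone and leaving out each array. Deviations of same-numbered mock and estriol arrays from their group means had correlations of 0.318, 0.168 and 0.127 for ER8Dof1.1, ER8Dof2.2 and ER8PEAR2. Between lines such correlations ran from -0.083 to 0.114, and the ER8Dof2.2 and ER8PEAR2 values lay little above that range. The labels do not say that a number marks a pair, so values with the replicate block are given where they change a call. The number of arrays limits the precision. The 4 genes and all lists were chosen with earlier results of these data known. Named beyond the 4 were list genes, the 3 most similar genes of each and, added after seeing the data, the 2 nearest annotated genes on either side. No sequences were used here.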

Additional observations from a re-analysis of the deposited data

Results flagged for a closer look

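These differences between lines in the change with estriol passed the test of the difference itself (limma, adjusted p under 0.05), for genes set beside the 4 Dof genes. AT2G34123, the neighbour of CDF4, rose more in the ER8Dof1.1 line than in the ER8Dof2.2 line by 3.48 and than in the ER8PEAR2 line by 2.24 (limma, adjusted p = 0.00101 and 0.0129, the latter 0.0544 without ER8PEAR2 estriol array 2). Its signal was dim in 5 of the 6 groups. SWEET11 changed less in the ER8Dof2.2 line than in the ER8PEAR2 line, by -3.72 (limma, adjusted p = 0.0482), and missed the threshold on the arrays of those lines alone (0.139) and without most single arrays (up to 0.166). Its mock arrays of the ER8Dof2.2 line stood at 6.57 and 8.68. The SWEET11 difference ER8Dof1.1 minus ER8PEAR2, -2.53 (limma, adjusted p = 0.134), passed the threshold with the replicate block (0.0487), on the arrays of those lines alone (0.00402) and without either ER8Dof2.2 mock array (0.0147). EXPA7 fell more in the ER8Dof1.1 and ER8Dof2.2 lines than in the ER8PEAR2 line, with differences of -1.55 and -2.45 (limma, adjusted p = 0.0141 and 0.00196). The former missed the threshold without either ER8PEAR2 mock array (-1.57 and -1.52) or ER8PEAR2 estriol array 2 (-1.49). EXPA18 did likewise, at -2.1 and -3.29 (limma, adjusted p = 0.00125 and 9.58e-05), and fell less in the ER8Dof1.1 than in the ER8Dof2.2 line, with a difference of 1.19 that missed the threshold after common normalization (0.0673), on the arrays of those lines alone (0.107), with the replicate block (0.0757) and without most single arrays (up to 0.0929). The causes were not tested.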

How the results depend on the processing

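The changes and line differences of the 4 genes moved by less than 1 replicate SD in 212 of 216 values under other settings with all arrays. The others were the CDF4 difference ER8Dof2.2 minus ER8PEAR2 at -0.273 and the DOF1.5 one at -0.531 after quantile normalization, and CDF5 with its 2 entries averaged, at 2.67 in the ER8PEAR2 line and -1.41 for ER8Dof2.2 minus ER8PEAR2. The 212 are no measure of stability. Other moderation, array weights, the replicate block, the dim filter, all entries and the arrays of the lines compared alter only the SE. Averaging entries can alter only CDF5. Leaving out single arrays moved 24 of 288 values by more than 1 replicate SD. A value cannot move where the array left out belongs to a line outside its comparison. For CDF4, the change in the ER8Dof2.2 line ranged from 3.67 to 4.26, ER8Dof1.1 minus ER8Dof2.2 from -0.27 to 0.32 and ER8Dof2.2 minus ER8PEAR2 from -0.29 to 0.3. For CDF5, the change in the ER8Dof1.1 line ranged from 1.015 without estriol array 1 to 1.94 without estriol array 2, ER8Dof1.1 minus ER8Dof2.2 from -0.29 to 0.64 and ER8Dof1.1 minus ER8PEAR2 from -1.99 to -1.07. For DOF1.3, the changes ranged from 3.77 to 4.42 (ER8Dof1.1) and 3.15 to 3.68 (ER8Dof2.2), and the differences from 0.36 to 1.01 (ER8Dof1.1 minus ER8Dof2.2), -1.47 to -0.82 (ER8Dof1.1 minus ER8PEAR2) and -2.09 to -1.56 (ER8Dof2.2 minus ER8PEAR2). Among the lists, GI was called in the ER8PEAR2 line (1 of 2 clock genes) after leaving out the dimmest genes, with trended robust moderation and with array weights. CLE40 was called in the ER8Dof1.1 line (1 of 2) on that line's arrays alone, and the count ranged from 0 to 1 without single arrays. Of the phloem markers 2 were called in the ER8Dof1.1 line after quantile normalization, on that line's arrays alone and with the replicate block of same-numbered arrays of a line, which left the other clock, columella and phloem counts as they were. The block's other changes of call, of RCA, EXPA18, SWEET11, AT1G69580 and 4 other Dof genes, stand beside those results. Without single arrays the phloem count ranged from 1 to 2 in the ER8Dof1.1 and in the ER8Dof2.2 line. The block changed no other call of the list genes or neighbours. The causes of these shifts were not tested. Signal near or under the dim limit restricts what can be said of CDF5 and DOF1.3 in mock roots, and also of CLE40, CLE45 and DOF1.6.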
